A study of Mus musculus with 12 samples.

Results

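The genes described here are Nfe2l2, which encodes the transcription factor Nrf2, Keap1, which encodes its inhibitor, and 8 of its well known target genes: Nqo1, Hmox1, Gclc, Gclm, Txnrd1, Srxn1, Gsr and G6pdx. They were chosen by name, because glycogen synthase kinase 3 (GSK3) controls the stability of Nrf2. The rule uses no measured value, but it was set with earlier results of these data known. All 10 were found, each as a single row, among the 23965 gene rows of the read-count table, and all 10 were among the 15608 genes with enough counts to be tested. The samples were neurospheres, free-floating cultures of neural progenitors, grown from the ventral midbrain of CD-1 mice at E11.5, a stage of mid-gestation, expanded for 3 days and then exposed to compounds for 5 h in N2 medium. There were 4 groups of 3 libraries: GW3965 together with CT99021, CT99021 alone, GW3965 alone, and control. The treatment label of the controls reads "none" while the protocol names the solvent DMSO, so whether the controls received the solvent is not settled by the labels. CT99021 (also named CHIR99021) inhibits GSK3, and GW3965 activates the liver X receptors (LXR), nuclear receptors of sterol metabolism. Doses and the number of embryos behind a culture are not stated in the labels. The labels also leave unsaid whether replicates come from separate cultures. All p-values here therefore speak of the spread among the sequenced libraries, and that spread may be technical.

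Nrf2 is a leucine zipper factor that pairs with small Maf proteins and binds antioxidant response elements in its target genes. In unstressed cells it is degraded quickly. Keap1 hands it to a Cul3 ubiquitin ligase and loses that grip when its cysteines are oxidised, while GSK3 phosphorylates Nrf2 so that the F-box proteins Btrc and Fbxw11 hand it to a Cul1 ligase. Both routes act on the protein, so the RNA of the target genes is the part of the pathway that a read-count table can show. The targets make glutathione (Gclc and Gclm), recycle glutathione, thioredoxin and peroxiredoxins (Gsr, Txnrd1, Srxn1), break down heme (Hmox1), reduce quinones (Nqo1) and supply NADPH (G6pdx).

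Promoter sequences show where the letters of the element lie in these genes. RefSeq promoter windows of build GRCm38.p6, from 250 bases before to 50 bases after a start, were matched for 7 of the 10 genes, in 9 windows because Txnrd1 has 3 starts. Hmox1, Gclc and Gsr were not among them. The core TGACNNNGC, searched on both strands, lay in the windows of Nfe2l2, Gclm, Srxn1 and G6pdx and in 1 of the 3 Txnrd1 windows, against 12.4% of all 32851 windows. A form of the core with G in place of C, TGAGNNNGC, lay in the Srxn1 window at 2 sites, against 17.7% of all windows. Srxn1 also held the AP-1 motif TGAGTCA at 2 sites, against 5.20% of windows, and the one nearer the start, 45 bases upstream, overlaps a TGAGNNNGC site. The Keap1 and Nqo1 windows held none of these letters. Below are the 250 bases before the start of Srxn1, which held the most matches, of Txnrd1, the member past a test, and of Nfe2l2 itself, with matches of the 3 motifs in capitals. The TGACNNNGC match of Srxn1 lies 28 bases after its start and is not shown.
Srxn1, chr2:152105274-152105523, plus strand: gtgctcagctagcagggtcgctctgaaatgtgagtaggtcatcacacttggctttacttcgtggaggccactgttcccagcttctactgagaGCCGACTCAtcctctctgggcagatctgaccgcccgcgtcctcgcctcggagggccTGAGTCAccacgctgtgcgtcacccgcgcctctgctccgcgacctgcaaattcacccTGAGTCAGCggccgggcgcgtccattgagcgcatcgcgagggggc
Txnrd1, the middle start, chr10:82858956-82859205, plus strand: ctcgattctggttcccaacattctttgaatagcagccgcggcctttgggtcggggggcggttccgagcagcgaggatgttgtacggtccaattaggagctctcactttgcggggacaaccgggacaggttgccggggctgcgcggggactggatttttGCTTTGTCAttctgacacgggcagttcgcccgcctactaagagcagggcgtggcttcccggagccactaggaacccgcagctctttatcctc
Nfe2l2, chr2:75704664-75704913, minus strand: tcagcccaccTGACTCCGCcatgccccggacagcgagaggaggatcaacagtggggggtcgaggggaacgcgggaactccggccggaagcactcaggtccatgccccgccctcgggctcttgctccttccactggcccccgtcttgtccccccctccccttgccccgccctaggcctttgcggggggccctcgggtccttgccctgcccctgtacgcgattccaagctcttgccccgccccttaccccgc

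CT99021 replicate 1 stood apart from the other libraries, and the libraries also differed by replicate number. Libraries held 9646424 to 21314093 gene counts, and CT99021 replicate 1 gave 7.95% of its counts to Lars2, against at most 0.142% in the other libraries. Replicate number carried more of the variation than treatment: it took a median of 54.1% of the sum of squares of log2 levels over all tested genes and 59.0% over the 10 genes, while treatment took 21.7% and 20.8%. Libraries with the same number also deviated from their group means together, so the numbers were treated as pairing the libraries. Results are therefore given from the fit without the replicate number and from the fit with it as a block, both with edgeR's quasi-likelihood test. Each log2 fold change is printed with its standard error, and it and its adjusted p come from the blocked fit unless stated. "Rose" and "fell" are used of genes past an adjusted p of 0.05 in the blocked fit. The compounds' own marker genes moved as labelled: Axin2, a Wnt feedback gene, had a log2 fold change of 1.68 ± 0.14 with CT99021 (edgeR adjusted p = 1.4e-04), and Srebf1, an LXR target, one of 1.40 ± 0.09 with GW3965 (edgeR adjusted p = 2.6e-04). Of 10 neural progenitor markers, Sox2 and Nes among them, none was at 0 in every library. Their summed level was 2590 to 4492 CPM (counts normalised to library size) over the 12 libraries, and Vim alone averaged 1913 CPM in control libraries. A sum above 0 does not show that the cultures held only progenitors, and markers of other cell types are given below.

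All 10 genes were well covered, with 68 (Nqo1) to 6538 (Txnrd1) raw counts per library. The table lists 1 position per gene in mm9, without an end and without saying which base is counted first. Nfe2l2 is listed on chromosome 2 at 75513575 (minus strand) and Srxn1 on the same chromosome at 151931365 (plus strand). Txnrd1 is on chromosome 10 at 82296595 (plus strand). Chromosome 8 holds Hmox1 at 77617416 and Gsr at 34763609, both on the plus strand, and Nqo1 at 109912124 on the minus strand. Gclc and Keap1 lie on chromosome 9, Gclm on chromosome 3 and G6pdx on the X chromosome.

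The order of levels among the genes was set by length-corrected counts. Per kilobase of the transcript length listed in the table, Txnrd1, the cytosolic thioredoxin reductase, had the highest level in control libraries, at 62.5 ± 6.92 CPM per kb, followed by Hmox1 at 37.3 ± 10.2 CPM per kb (SD, n = 3). Nfe2l2 came next at 24.3 ± 1.28 CPM per kb. Gclc, Gclm, G6pdx and Gsr lay close together at 21.4 ± 2.80, 21.3 ± 0.76, 20.7 ± 0.70 and 19.8 ± 4.39 CPM per kb, and neighbours in that order differed by less than the larger of their SDs. Srxn1 had 14.7 ± 4.52, Keap1 11.9 ± 0.20 and Nqo1 7.53 ± 4.63 CPM per kb, the last with an SD that reaches into the range of Keap1.

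**Figure D1:**
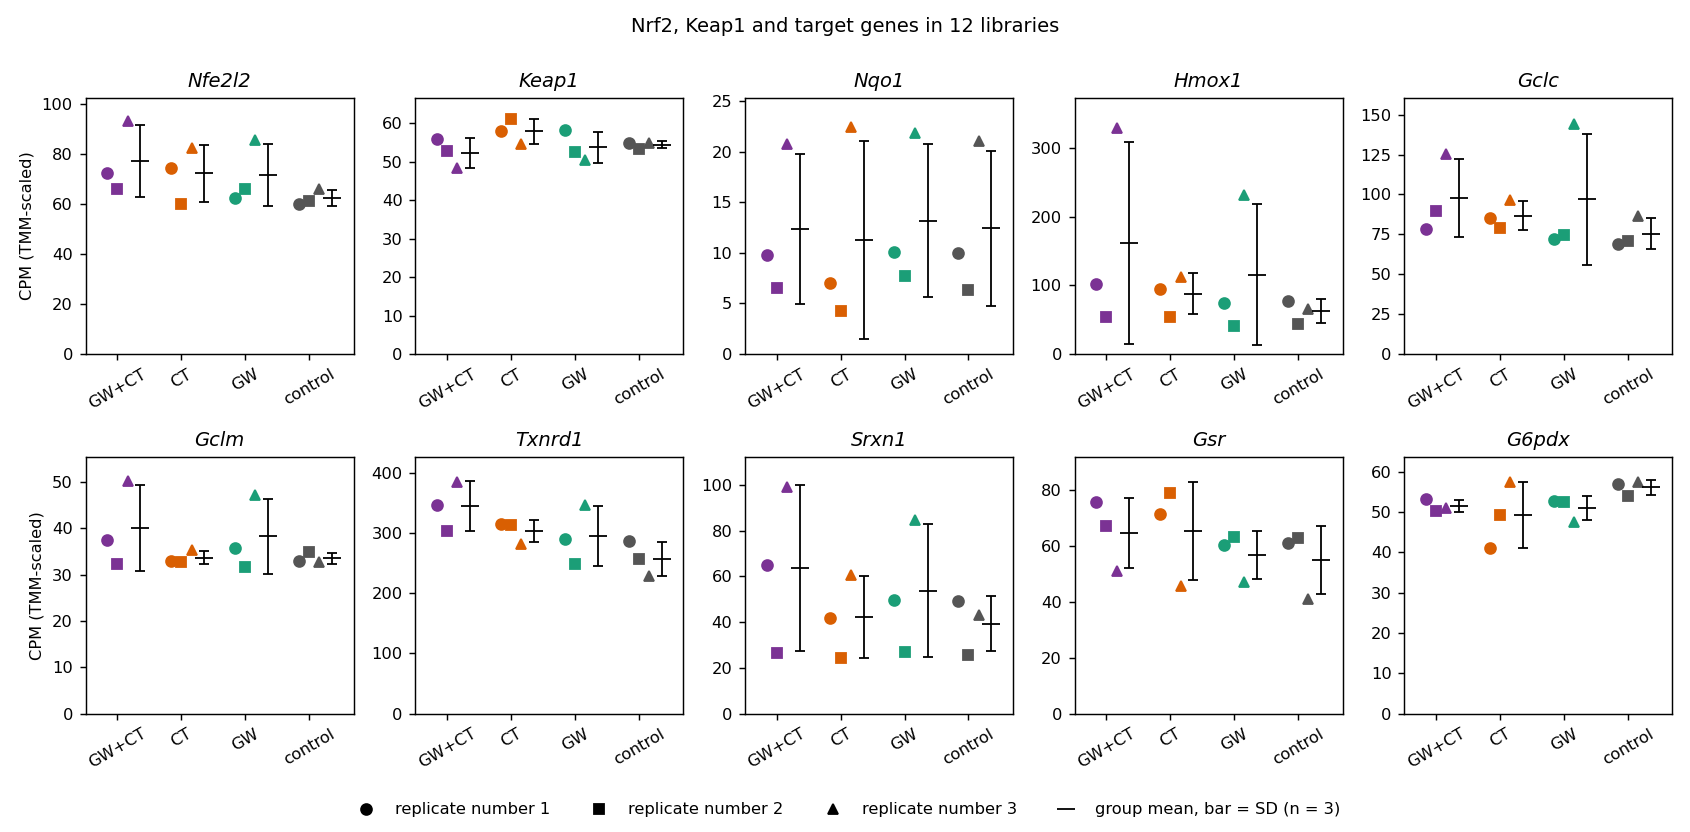
Level of each gene (vertical axis, CPM after TMM scaling, starting at 0) in the 12 libraries by group (GW+CT is GW3965+CT99021, CT is CT99021 and GW is GW3965). Symbols mark the replicate number and the black bar the group mean with its SD (n = 3). The libraries numbered 3 hold the highest Nqo1 value of every group, while Txnrd1 is higher in each of the 3 libraries with both compounds than in any control library.

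CT99021 against control asks whether inhibition of GSK3 for 5 h raised the RNA of Nrf2 targets. None of the 10 genes passed the test: 0 of 10 without the block, where edgeR called 0.0577% of all tested genes, and 0 of 10 with it, where edgeR called 15.8% (8.23% higher and 7.59% lower). DESeq2 called 0 of 10 with the block, against 19.7% of all genes it tested, and 0 of 10 without it, against 321 of 12535 genes. Limma-voom without the block called 0 of 10, against 9 of 15608 genes. In the blocked edgeR fit 1 gene, Gsr, had an unadjusted p under 0.05, against 30.8% of all tested genes. Without the block 0 of 10 had one, against 9.7%. The median log2 fold change of the 10 genes was 0.14 and that of all tested genes 0.02. Estimates ran from -0.28 for Nqo1 to 0.40 for Hmox1, and 7 of 10 were above 0.

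The regulators Nfe2l2 and Keap1 showed no difference from control that passed. Nfe2l2 had 74.4, 60.1 and 82.4 CPM with CT99021 in replicates 1, 2 and 3, against 60.0, 61.3 and 66.2 CPM in control libraries. The groups overlapped, since CT99021 replicate 2 lay among the controls. The log2 fold change was 0.20 ± 0.09, with a 95% interval of -0.01 to 0.40 (edgeR adjusted p = 0.182). Keap1, the sensor that binds Nrf2, had 58.0 ± 3.18 CPM with CT99021 and 54.4 ± 0.91 CPM in control libraries (SD, n = 3), a log2 fold change of 0.09 with an interval of -0.07 to 0.25.

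Among the glutathione genes, Gclc, the catalytic subunit of glutamate cysteine ligase, had 85.0, 78.8 and 96.7 CPM with CT99021, against 68.7, 70.8 and 86.8 CPM in control libraries. It was higher in all 3 pairs of equal number, yet the ranges overlapped and the log2 fold change of 0.21 ± 0.14 did not pass (edgeR adjusted p = 0.345). Gclm, the modifier subunit, had 33.6 ± 1.40 CPM with CT99021 and 33.5 ± 1.20 CPM in control libraries (SD, n = 3), and the interval of its log2 fold change was -0.29 to 0.28. Gsr, glutathione reductase, had 71.6, 79.0 and 45.6 CPM with CT99021, against 61.2, 62.7 and 40.9 CPM in control libraries. In both groups replicate 3 was the low library, and within numbers Gsr was higher in 3 of 3 pairs, with a log2 fold change of 0.24 ± 0.09 (edgeR adjusted p = 0.0886).

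Nqo1, Hmox1 and Srxn1 varied more between replicate numbers than between treatments. Nqo1, a quinone reductase often used as a marker of Nrf2 activity, had 6.98, 4.28 and 22.4 CPM with CT99021, against 9.96, 6.33 and 21.0 CPM in control libraries. It was lower with CT99021 in replicates 1 and 2 (log2 ratios -0.48 and -0.52) and slightly higher in replicate 3 (0.09). Hmox1, heme oxygenase 1, had 95.3, 54.5 and 113 CPM with CT99021, against 77.6, 44.0 and 65.9 CPM in control libraries. Its log2 ratios were 0.29, 0.31 and 0.77, all above 0, with a log2 fold change of 0.40 ± 0.37 (edgeR adjusted p = 0.498). For Srxn1, sulfiredoxin, which repairs over-oxidised peroxiredoxins, the ratios disagreed in sign at -0.23, -0.07 and 0.48. G6pdx, which feeds the pentose phosphate pathway, had 49.3 ± 8.11 CPM with CT99021 and 56.2 ± 1.90 CPM in control libraries (SD, n = 3), a log2 fold change of -0.19 with an interval of -0.43 to 0.05. Of the 10 genes, 4 (Hmox1, Gclc, Txnrd1 and Gsr) were higher and 1 (G6pdx) was lower in all 3 pairs, against 28.5% and 25.6% of all tested genes.

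Without the 4 libraries numbered 3, some CT99021 differences passed and pointed in opposite directions. In that fit edgeR with the block called 4 of the 10 genes, against 25% of all tested genes. Hmox1 had a log2 fold change of 0.29 ± 0.06 (edgeR adjusted p = 0.0141) and Gsr one of 0.27 ± 0.08 (edgeR adjusted p = 0.0476). Nqo1 had one of -0.55 ± 0.16 (edgeR adjusted p = 0.0407) and G6pdx one of -0.30 ± 0.09 (edgeR adjusted p = 0.0437). A further fit also left out GW3965+CT99021 replicate 2, which had stood apart with those numbered 3 in an earlier look at these data, not shown here. Log2 fold changes with CT99021 were then 0.29 ± 0.05 for Hmox1, 0.26 ± 0.05 for Gsr, -0.56 ± 0.15 for Nqo1 and -0.31 ± 0.08 for G6pdx. Gclc had 0.21 ± 0.06 and Txnrd1 0.20 ± 0.06. Nfe2l2 had 0.12 ± 0.10, Keap1 0.12 ± 0.07, Gclm -0.06 ± 0.08 and Srxn1 -0.17 ± 0.07. That fit to 7 libraries holds 1 library with both compounds, so only effect sizes are given. In both fits the CT99021 group is replicates 1 and 2, and CT99021 replicate 1 is the library with 7.95% of its counts on Lars2. Both fits reuse libraries already described and are no independent repeat.

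**Figure D2:**
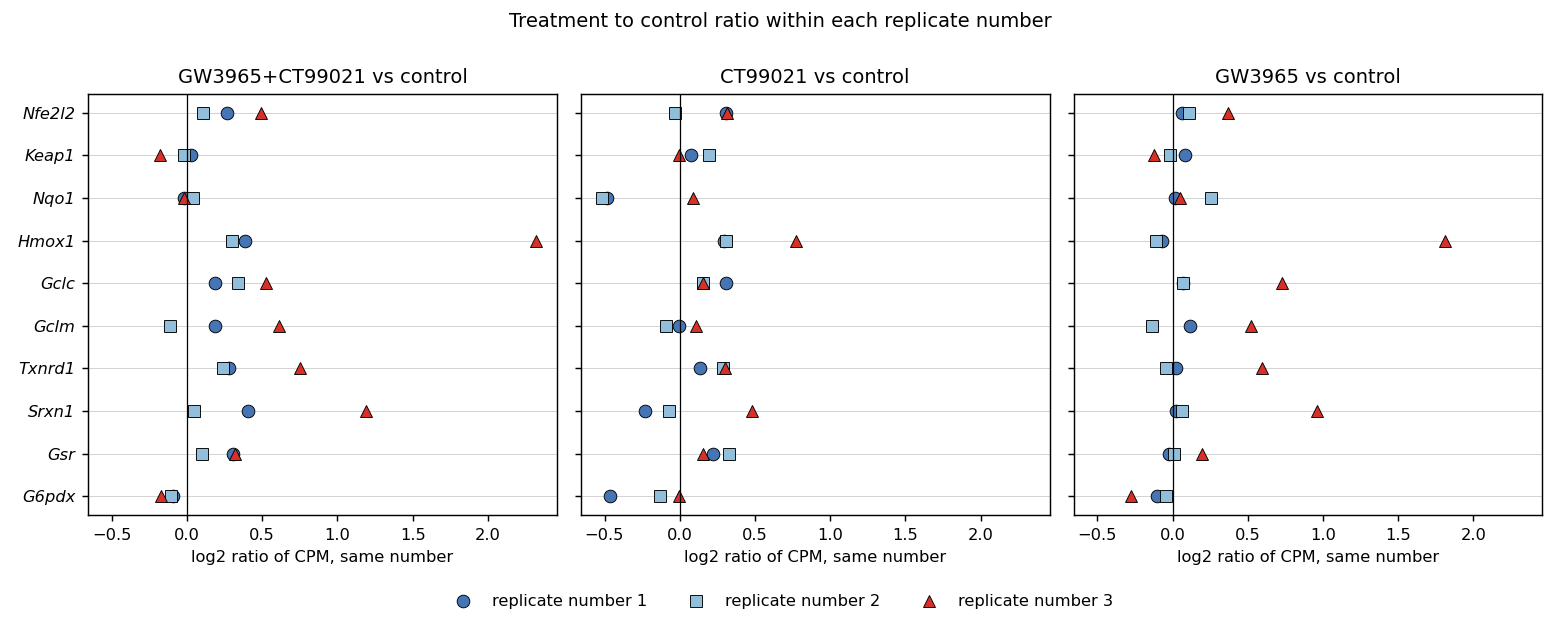
Log2 ratio of CPM (horizontal axis) between the treated and the control library of the same replicate number, for GW3965+CT99021, CT99021 and GW3965, with 1 symbol per number. In replicate 3 the Hmox1 ratio reached 2.32 with both compounds and 1.81 with GW3965, while in replicates 1 and 2 it lay between -0.11 and 0.39 in these comparisons.

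With both compounds against control, Txnrd1 rose. It had 347, 303 and 386 CPM with both compounds, against 286, 257 and 229 CPM in control libraries. The lowest library with both compounds lay above the highest control, and the ratios within numbers were 0.28, 0.24 and 0.75 on the log2 scale. Txnrd1 had 315, 314 and 283 CPM with CT99021 alone and 291, 248.6 and 347 CPM with GW3965 alone. Each of these groups overlapped with the controls, and their log2 fold changes against control, 0.24 ± 0.12 and 0.19 ± 0.12, did not pass. The log2 fold change was 0.42 ± 0.12 with an interval of 0.15 to 0.69, past the test with the block (edgeR adjusted p = 0.0379) and not without it (0.42, edgeR adjusted p = 0.285). It was 0.24 ± 0.06 without the libraries numbered 3, past the test (edgeR adjusted p = 0.0293) in a fit that called 25.1% of all tested genes. It did not pass without any 1 of the control libraries, any 1 with both compounds, or GW3965 replicate 1, where adjusted p ran up to 0.147 over the blocked fits.

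Thus 1 of 10 genes was called with the block, where edgeR called 20.3% of all tested genes (11.3% higher and 8.95% lower), and 0 of 10 without it, where edgeR called 0.115%. With the block and DESeq2, 3 of 10 were called (Txnrd1, Srxn1 and Nfe2l2), against 23.8% of genes. These shares lie near or below those of all tested genes. Unadjusted p was under 0.05 in 6 of 10 in the blocked edgeR fit, against 35.1% of all tested genes, and in 1 of 10 without the block, against 12%. Groups did not overlap for Txnrd1 and G6pdx, 2 of 10, against 17.3% of all tested genes. The median log2 fold change was 0.27 for the 10 genes and 0.01 for all tested genes.

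Hmox1 had the largest estimate with both compounds, and most of its size came from replicate 3. Its level was 102, 54.2 and 330.1 CPM with both compounds, against 77.6, 44.0 and 65.9 CPM in control libraries. The libraries of replicate 3 differed by 2.32 on the log2 scale and those of replicates 1 and 2 by 0.39 and 0.30. The log2 fold change of 0.98 ± 0.37 did not pass (edgeR adjusted p = 0.0902), but without the libraries numbered 3 a smaller one of 0.33 ± 0.06 did (edgeR adjusted p = 0.00858). That fit called 2 of the 10 genes, Hmox1 and Txnrd1, against 25.1% of all tested genes. Srxn1 was also farthest from its control in replicate 3, with 65.2, 26.5 and 99.2 CPM with both compounds, against 49.1, 25.7 and 43.2 CPM in control libraries. Gclm had 37.5, 32.3 and 50.2 CPM with both compounds, against 32.9, 34.9 and 32.7 CPM in control libraries, and was lower in replicate 2. The log2 fold change of Srxn1 was 0.55 ± 0.18 with all libraries (edgeR adjusted p = 0.0596), and 0.24 ± 0.12 without those numbered 3 (edgeR adjusted p = 0.173).

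Nfe2l2 and the glutathione genes were higher in most pairs with both compounds, without passing. Nfe2l2 had 72.3, 66.1 and 93.4 CPM with both compounds, against 60.0, 61.3 and 66.2 CPM in control libraries. It was higher in 3 of 3 pairs, although the ranges just overlapped, with a log2 fold change of 0.29 ± 0.09 (edgeR adjusted p = 0.0523). Gclc had 78.1, 89.7 and 125 CPM with both compounds, against 68.7, 70.8 and 86.8 CPM in control libraries (0.35 ± 0.14, edgeR adjusted p = 0.102). Only its replicate 1 lay within the range of the controls. Gsr had a log2 fold change of 0.24 ± 0.09 (edgeR adjusted p = 0.0734) and was also higher in all 3 pairs. In all, 6 of 10 genes were higher in every pair, against 28.6% of all tested genes. Nqo1 stood at 12.4 ± 7.44 CPM with both compounds and 12.4 ± 7.65 CPM in control libraries (SD, n = 3), with a log2 fold change of 0.00 and an interval of -0.36 to 0.36. Keap1 (-0.06 ± 0.07) and G6pdx (-0.12 ± 0.11) did not pass either.

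GW3965 against control asks whether LXR activation alone touched these genes. None of the 10 passed: 0 of 10 without the block, where edgeR called 0% of all tested genes, and 0 of 10 with it, where edgeR called 0.0192%. Higher in all 3 pairs were 4 of 10 (Nfe2l2, Nqo1, Gclc and Srxn1), against 14.2% of all tested genes. Unadjusted p was also under 0.05 in 0 of 10 in both fits, against 0.147% and 2.47% of all tested genes. DESeq2 called 0 of 10 with the block, against 0.0448% of all tested genes, and 0 of 10 without it, against 2 of 15540 genes. Limma-voom called 0 of 10, against 0 of 15608 genes. In this comparison the replicates disagreed. Hmox1 had 74.0, 40.7 and 232 CPM with GW3965, against 77.6, 44.0 and 65.9 CPM in control libraries, so that replicates 1 and 2 were slightly lower and replicate 3 was higher by 1.81 on the log2 scale. Gclc had 72.0, 74.4 and 144 CPM with GW3965, against 68.7, 70.8 and 86.8 CPM in control libraries. In replicate 3, Srxn1, Gclc, Txnrd1 and Gclm were likewise higher, by 0.96, 0.73, 0.60 and 0.52, whereas in replicates 1 and 2 the same genes lay between -0.13 and 0.12. The median log2 ratio of the 10 genes was 0.02, 0.00 and 0.45 in replicates 1, 2 and 3, and that of all tested genes -0.01 in each. Without the libraries numbered 3, Hmox1 had a log2 fold change of -0.09 ± 0.06 and Txnrd1 one of -0.01 ± 0.06. G6pdx was lower in all 3 pairs and its groups did not overlap (50.9 ± 2.99 CPM with GW3965 and 56.2 ± 1.90 CPM in control libraries, SD, n = 3), 1 of 10 against 2.77% of all tested genes, with a log2 fold change of -0.14 ± 0.11 (edgeR adjusted p = 0.959).

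The combination was also set against each compound alone. Against CT99021, 0 of 10 genes were called with or without the block, where edgeR called 0.0192% and 0% of all tested genes. DESeq2 called 0 of 10 with the block, against 0.0833% of all tested genes, and 0 of 10 without it, against 2 of 15540 genes. Unadjusted p in edgeR was under 0.05 in 1 of 10 with the block, against 6.52% of all tested genes, and in 0 of 10 without it, against 1.06%. That 1 gene was Srxn1, with 65.2, 26.5 and 99.2 CPM with both compounds against 41.7, 24.4 and 60.5 CPM with CT99021. It was higher in all 3 pairs, by 0.64, 0.12 and 0.71 on the log2 scale, with a log2 fold change of 0.52 ± 0.18 (edgeR adjusted p = 0.734).

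Against GW3965, 0 of 10 genes were called with the block, where edgeR called 20.6% of all tested genes (11.8% higher and 8.81% lower), and 0 of 10 without it, where edgeR called 0.0769% (0.00641% higher and 0.0705% lower). Unadjusted p was under 0.05 in 0 of 10 in both fits, against 35% and 11.3% of all tested genes. DESeq2 called 0 of 10 with the block, against 23.2% of all tested genes, and 0 of 10 without it, where it called 464 genes in all. In this pair of groups the Hmox1 ratios were alike in the 3 numbers. It had 102, 54.2 and 330.1 CPM with both compounds against 74.0, 40.7 and 232 CPM with GW3965, log2 ratios of 0.45, 0.41 and 0.51. Its log2 fold change of 0.47 ± 0.36 did not pass (edgeR adjusted p = 0.386), while without the libraries numbered 3 it was 0.42 ± 0.06 (edgeR adjusted p = 0.00358). In that fit to 8 libraries Txnrd1 also passed, at 0.25 ± 0.06 (edgeR adjusted p = 0.0243), so 2 of 10 were called against 28% of all tested genes. The interaction of the compounds was past the test for 0 of 10 genes in both fits, against 0% of all tested genes, with estimates from -0.16 to 0.20 and 0 of 10 at an unadjusted p under 0.05, against 3.35% of all tested genes with the block and 0.474% without it.

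**Figure D3:**
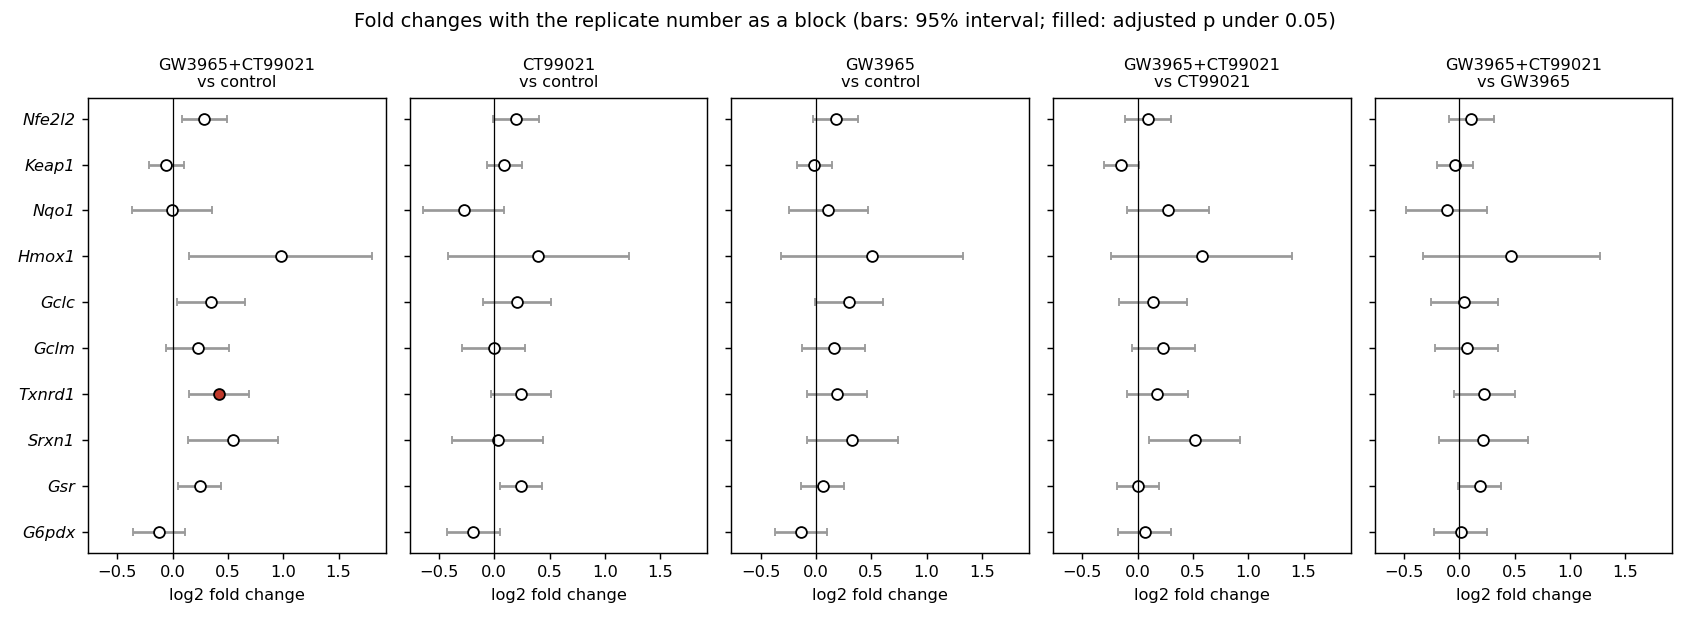
Log2 fold change of each gene in 5 comparisons from the blocked edgeR fit (points), with 95% intervals (bars). Filled points passed an adjusted p of 0.05, and Txnrd1 with both compounds against control, at 0.42, is the 1 filled point.

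The spread between replicate numbers was the largest feature of several of these genes. Nqo1 averaged 21.5 CPM over the 4 libraries numbered 3, against 9.21 and 6.20 CPM over those numbered 1 and 2, and number took 92.6% of its sum of squares while treatment took 4.13%. Its 4 libraries numbered 3 lay between 20.7 and 22.4 CPM whatever the treatment. Gsr went the other way, at 46.2 CPM in libraries numbered 3 against 67.2 and 68.0 CPM in those numbered 1 and 2. Srxn1 was lowest in number 2, at 25.9 CPM, with 51.4 and 71.8 CPM in numbers 1 and 3. Keap1, G6pdx and Nfe2l2 ranged least over the 12 libraries, by 1.26, 1.40 and 1.56 times, and Hmox1 most, by 8.10 times.

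Markers of other cell types moved with the numbers too. The summed level of 10 mesenchyme and pericyte markers was 2595 to 3940 CPM in libraries numbered 3, against 1218 to 2289 CPM in number 1 and 239 to 955 CPM in number 2. Erythroid markers, 8 genes, stood at 7758 to 12572 CPM in number 3, against 2225 to 3492 CPM in number 1 and 5451 to 6552 CPM in number 2. The 10 neural progenitor markers were lowest in number 3, at 2590 to 3046 CPM. They stood at 3114 to 3964 CPM in number 1 and 3299 to 4492 CPM in number 2. Microglia and macrophage markers, 8 genes of cells that can carry much Hmox1, stayed low at 22.3 to 46.5 CPM, and endothelial markers, 8 genes, at 30.5 to 64.2 CPM, and no gene of these lists was at 0 in every library. Markers also differed with treatment in the blocked fit, while without the block 0 genes of these marker lists passed in any comparison. Of the mesenchyme markers, 4 of 10 rose with both compounds against control, against 11.3% of all tested genes, Twist1 by 1.24 ± 0.18 among them, and 1 of 10, Twist1 by 0.74 ± 0.18, rose with CT99021, against 8.23%. Of the erythroid markers, 2 of 8 fell with both compounds, Hbb-y by 0.43 and Hbb-bh1 by 0.50, against 8.95% of all tested genes. Of 7 tested endothelial markers, 1 (Kdr, by 0.60) fell with CT99021, against 7.59% of all tested genes. With both compounds 1 (Esam, by 0.87 ± 0.22) rose, against 11.3%. Of the 10 neural progenitor markers, 4 fell with CT99021 and 6 with both compounds against control, against 7.59% and 8.95% of all tested genes, Sox1 by 0.67 and 0.81 among them. Of the 7 tested microglia markers, 1 (Cx3cr1) fell, by 1.57 with CT99021 and by 1.32 with both compounds, against 7.59% and 8.95% of all tested genes. The part of these cells in the levels of Nqo1, Srxn1, Gsr and Hmox1 was not tested, and in bulk RNA fewer cells of a type and less RNA per cell cannot be told apart.

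Genes of the integrated stress response were high in the libraries where Hmox1 was highest. The summed level of 12 genes of the ATF4 and endoplasmic reticulum stress response, Ddit3, Trib3 and Chac1 among them, was 2425 CPM in GW3965+CT99021 replicate 3 and 2372 CPM in GW3965 replicate 3. It was 877 CPM in CT99021 replicate 3 and 830 CPM in control replicate 3. In replicates 1 and 2 it was higher where CT99021 was present. It was 1275 and 1337 CPM with both compounds and 1338 and 1386 CPM with CT99021. With GW3965 it was 916 and 965 CPM, and in control libraries 946 and 1013 CPM. The libraries with the high stress sum were those with the highest Hmox1 (330.1 and 232 CPM), Gclc (125 and 144 CPM), Srxn1 (99.2 and 84.5 CPM), Gclm (50.2 and 47.2 CPM) and Nfe2l2 (93.4 and 85.7 CPM). Txnrd1, the gene called with both compounds, was also highest in them, at 385.8 and 347.3 CPM, the second hardly above the 347.2 CPM of GW3965+CT99021 replicate 1. Nqo1 did not follow the stress sum, being 20.7 and 21.8 CPM in these libraries and 22.4 and 21.0 CPM in CT99021 and control replicate 3. Of the 12 stress genes, 1 (Psat1, by 0.74 ± 0.20) rose with both compounds against control, against 11.3% of all tested genes. In the other comparisons 0 passed. Over all tested genes 15.8% passed with CT99021 and 0.0192% with GW3965 against control. With both compounds 20.6% passed against GW3965 and 0.0192% against CT99021. Hmox1, Slc7a11 and other genes of glutathione supply are known to answer to ATF4 as well as to Nrf2, and the part of the stress response in the values above was not tested.

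**Figure D4:**
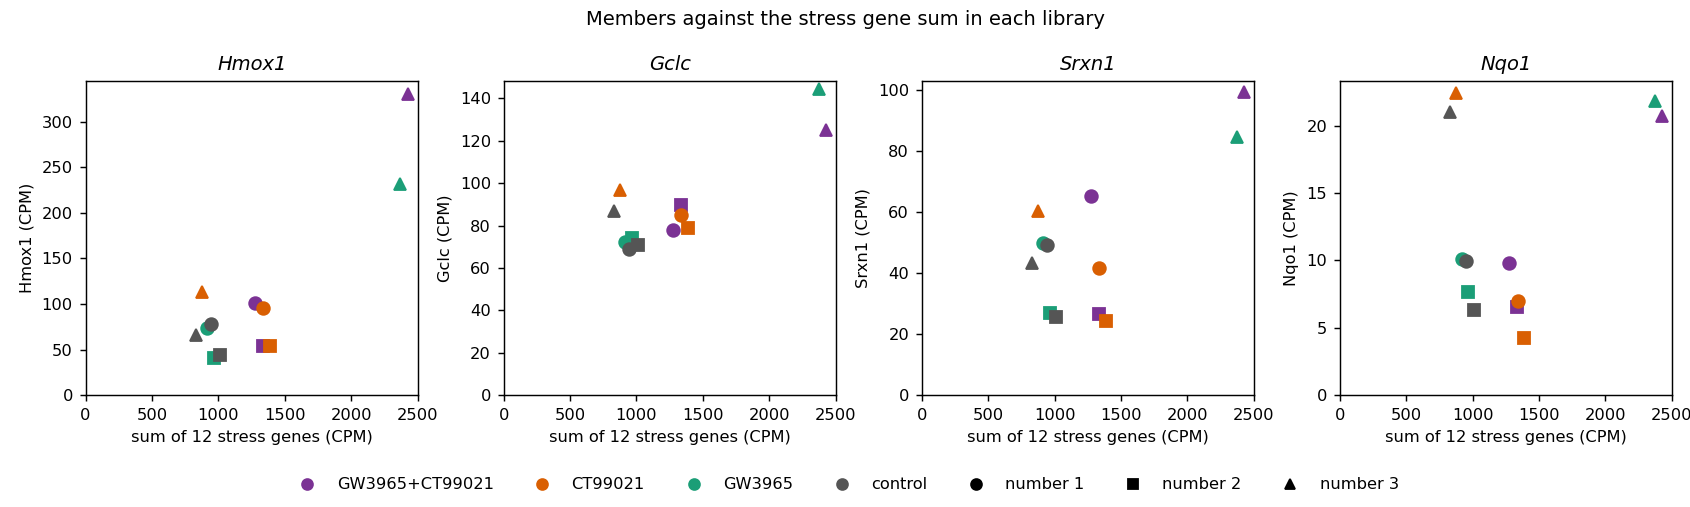
Level of 4 genes (vertical axes, CPM) against the summed CPM of 12 ATF4 and endoplasmic reticulum stress genes (horizontal axis) in each of the 12 libraries, coloured by group and shaped by replicate number. The libraries at stress sums of 2425 and 2372 CPM hold the highest Hmox1, Gclc and Srxn1 values, and Nqo1 is high in all 4 libraries numbered 3.

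Outside the 10 genes, the wider pathway was read on lists of partners and of other targets. Of 16 partners and degradation factors, 2 rose and 1 fell with CT99021 against control (median -0.07), against 8.23% and 7.59% of all tested genes. Bach1, a repressor that competes with Nrf2 for small Maf partners and for the Hmox1 enhancer, rose by 0.33 ± 0.10, with 145 ± 9.65 CPM against 117 ± 26.6 CPM in control libraries (SD, n = 3). Gsk3a, the alpha form of the kinase, rose by 0.23 ± 0.06. Btrc, an F-box protein that recognises Nrf2 after phosphorylation by GSK3 and also recognises beta-catenin, fell by 0.24, with 57.5 ± 2.84 CPM against 67.8 ± 4.47 CPM in control libraries (SD, n = 3). With both compounds against control, Bach1 rose by 0.40 ± 0.10, while Btrc and Rbx1, the RING subunit shared by the Cul1 and Cul3 ligases, fell by 0.27 and 0.33 (median of the list 0.07), so that 3 of 16 were called, against 20.3% of all tested genes. Both counts of 3 of 16 are close to the share over all tested genes. Bach1 and Btrc also passed against GW3965, at 0.31 ± 0.10 and -0.22 ± 0.06. No gene of this list passed with GW3965 against control or with both compounds against CT99021.

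Few of the other Nrf2 targets passed, and those that did went in both directions. With at most 2 genes rising and 1 falling per list and comparison, the counts do not set these lists apart from all tested genes. Among 9 tested glutathione genes, 0 rose and 1 fell with CT99021 (median -0.09), and 2 rose and 1 fell with both compounds against control (median 0.06). Over all tested genes, 8.23% rose and 7.59% fell with CT99021, and 11.3% rose and 8.95% fell with both compounds. Slc7a11, the cystine importer, rose by 0.51 ± 0.13 with both compounds, to 548 ± 33.8 CPM, against 385 ± 56.0 CPM in control libraries (SD, n = 3). Abcc1, an exporter of glutathione conjugates, rose by 0.55 ± 0.13 with both compounds. Mgst1, a microsomal glutathione transferase, fell by 0.39 with CT99021 and by 0.47 with both compounds. It stood at 21.6 ± 4.24 CPM with both compounds and 22.9 ± 4.78 CPM with CT99021, against 29.96 ± 5.67 CPM in control libraries (SD, n = 3).

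Of 8 thioredoxin and NADPH genes, 1 rose and 0 fell with CT99021 (median 0.12), and 2 rose and 0 fell with both compounds (median 0.13), against 8.23% and 11.3% of all tested genes that rose. Prdx6, a peroxiredoxin, rose by 0.31 ± 0.07 with CT99021 and by 0.37 ± 0.07 with both compounds. Me1, malic enzyme, rose by 0.33 ± 0.08 with both compounds. Pgd, the NADPH-making enzyme downstream of G6pdx, rose by 0.25 ± 0.08 with both compounds against GW3965. Of 10 genes of iron, heme and detoxification, 1 fell and 0 rose in each of these comparisons with control: Ephx1, microsomal epoxide hydrolase, by 0.62 with CT99021 and by 0.54 with both compounds, against 7.59% and 8.95% of all tested genes that fell. Of 12 antioxidant enzymes less tied to Nrf2, 1 rose, the mitochondrial thioredoxin Txn2, by 0.39 ± 0.08 with CT99021 and by 0.37 ± 0.08 with both compounds. The corresponding shares of all tested genes that rose were 8.23% and 11.3%. With GW3965 against control 0 genes of these lists passed. None of the calls in these paragraphs passed without the block.

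After the mean of each replicate number was subtracted, the genes whose log2 levels over the 12 libraries were most like Hmox1 were Ngdn, Psph and Reps1 (Pearson r = 0.98 each), and those most like Nfe2l2 were Mbip, Wtip and Spopl (0.92, 0.92 and 0.91). These coefficients describe libraries that share their numbers and are the highest among all tested genes.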

How the data were processed

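RNA of 12 libraries was sequenced from 0.5 µg of total RNA with Illumina TruSeq kits, per the labels' protocols. The authors deposited raw read counts per feature, whole numbers without normalisation, in 1 table. The submitters' processing notes name Bowtie and mm9. How reads were counted, on which annotation and whether by strand is not given in the sources used here, so reads of overlapping genes cannot be told apart. No other gene row had its listed position within 5000 bases of that of a member. A single listed position does not show how far a gene reaches, so overlap was not tested. The 1217 repeat rows (0.196% to 0.643% of counts) stayed out of library sizes and tests.

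From the counts, CPM was computed with trimmed mean of M values (TMM) factors over the 15608 genes kept by filterByExpr, and log2 ratios with 0.5 CPM added. Groups were tested with edgeR 4.0.16 (R 4.3.3, quasi-likelihood F test) on all 12 libraries with a mean per group and Benjamini-Hochberg adjustment over all tested genes. A second fit added the replicate number as a block. Same-numbered libraries of different groups deviated together (18 pairs, r = 0.553 to 0.836, median 0.773, against -0.692 to 0.238 for 36 pairs of different numbers). Each group's mean was subtracted first, which pushes r of different numbers below 0 once same numbers agree. The negative values therefore add no evidence of their own. The labels do not state this pairing, so it rests on the data. Common biological variation (BCV) was 33.4% without the block and 12.7% with it. Alternatives were DESeq2 1.42.0, limma-voom (limma 3.58.1), other size factors, no filter, fewer groups and libraries left out. The members and lists were chosen with earlier results of these data known. All 10 members are named, and of other lists up to 4 genes past the blocked test per list and comparison with the largest change. Intervals are 95% from the fits and SD has n = 3.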

Additional observations from a re-analysis of the deposited data

How the results depend on the processing

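Txnrd1 with both compounds against control was the only member called by edgeR with the replicate block and all libraries, and it was not called without the block. DESeq2 with the block called Nfe2l2 and Srxn1 as well. In that comparison the number of members called was 0 without the block, 1 with it, 1 with the block and RLE factors, 1 with the block and no filter and 3 with the block and DESeq2. It was 2 with the block and without the libraries numbered 3, against 25.1% of all tested genes. With single libraries left out it was 0 to 2. The 2 were called without CT99021 replicate 3 or GW3965 replicate 3, in fits that called 3730 of 15754 and 3760 of 15766 genes. When GW3965+CT99021 replicate 2 was left out too, the lone library with both compounds is assumed to vary like the other groups. No count per comparison is given for that fit to 7 libraries. For CT99021 against control the count was 0 in both fits, 4 and 6 in the blocked fits to those 8 and 7 libraries, and 0 to 3 with single libraries left out. For both compounds against GW3965 it was 0, and 2 in the fit to 8 libraries, against 28% of all tested genes. For both compounds against CT99021 it was 0 in the fits with more than 1 library per group. For GW3965 against control and for the interaction it was likewise 0 in those fits. Of 2090 single-member values under alternatives, 40 passed. The fit without the block called no member, so none could be lost against it, and Txnrd1 with both compounds against control passed in 11 of 18 blocked fits. Hmox1 with both compounds against control ranged from 0.33 to 1.22 over 18 blocked fits and Txnrd1 from 0.24 to 0.49.

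Calls over all genes depend on the block as well. Without and with it they numbered 0 and 3 for GW3965, 9 and 2470 for CT99021, 18 and 3163 for both compounds against control, 0 and 3 against CT99021, and 12 and 3218 against GW3965. DESeq2 without the block called 2, 321, 573, 2 and 464 in that order, and fits to the compared groups alone 0, 0, 2, 0 and 2. RLE factors moved the median of all genes by less than 0.1 on the log2 scale.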
